A study of Mus musculus with 21 samples.

Results

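The cytosolic ribosomal proteins were examined in single mouse myofibers measured on a 1-colour Agilent microarray. Members were all non-control probes whose gene name was Rpl or Rps followed by a number with an optional letter suffix, or Rplp0, Rplp1, Rplp2 or Rpsa. Pseudogene names and the ribosomal S6 kinases were left out. The rule took 177 of the 55681 probes and covered 81 of the 35527 gene names on the array, 50 of the large and 31 of the small ribosomal subunit. The rule used names only and no measured value.

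The groups were 11 type 1 myofibers and 10 type 2B myofibers, from CD1 mice 3 months old. The sample labels give the mice as male, whereas the study's methods speak of females for the isolation of myofibers, so their sex is not settled here. Type 1 myofibers are slow and oxidative and came from the soleus, whereas type 2B myofibers are fast and glycolytic and came from the extensor digitorum longus (EDL), so that fiber type and muscle cannot be told apart. The myofibers came from 9 mice, 6 for each type, and 3 mice gave both types. Each myofiber was typed by the myosin in a clipped piece, and the RNA of the rest was amplified before labelling. A single myofiber holds many nuclei, and cells attached to it can add RNA.

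Across the series, the slow myosin gene Myh7 spanned log2 signals of 9.22 to 16.28 among type 1 and 6.78 to 7.84 among type 2B myofibers. For the fast 2B myosin gene Myh4 the spans were 1.80 to 8.61 and 14.42 to 15.81. The lowest type 1 value of Myh7 was that of the myofiber S6.4, which stands apart from its group, so the called differences of members and the largest paralog shifts are also given without it. Between 60.0% and 90.9% of all probes had a signal flagged positive and significant on an array. The arrays lay on 6 slides, of which 3 held both types. With 46922 probes tested, the precision is limited by the number of arrays.

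Ribosomal proteins are the protein part of the ribosome, the particle that reads messenger RNA and joins amino acids into protein. Most cells carry nearly the same set in equal numbers, and its mRNAs are among the most abundant of the cytoplasm. Some members have a close relative, or paralog, with a narrower distribution. The best known in muscle is Rpl3l, a relative of Rpl3 found mainly in skeletal muscle and heart, and the elongation factor Eef1a2 similarly accompanies the more widely expressed Eef1a1.

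The probes behind the main result are shown here because the array annotation assigns each to 1 of the 2 paralogs. Whether either also captures the other paralog was not tested. The Rpl3 probe was placed by the array annotation on mm9 chr15:79908489-79908772, minus strand, and the Rpl3l probe on chr17:24872413-24872681, plus strand. Both spans are longer than a probe of 60 bases, so neither probe matches the genome as 1 unbroken stretch. Another probe is named for the pseudogene Rpl3-ps1, yet its annotated position, chr15:79908186-79908192, lies 297 bases from the Rpl3 probe. RefSeq (GRCm38.p6) lists the gene Rpl3-ps1 on chromosome X. Its last 28 bases are shown with the polyadenylation hexamer in capitals, and which transcript it captured was not tested.
Rpl3 probe: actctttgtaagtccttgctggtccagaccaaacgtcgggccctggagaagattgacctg
Rpl3l probe: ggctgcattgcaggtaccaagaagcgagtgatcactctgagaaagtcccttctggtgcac
Rpl3-ps1 probe, end: caccAATAAAatatttctagttaaaaaa

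As a family, the ribosomal protein mRNAs differed little between the myofiber types. Of the 177 probes, 175 passed the filter on signal and were tested, which left 80 of the 81 genes. Only 2 of the 175 passed a Benjamini-Hochberg adjusted p of 0.05 in limma, against 7.57% of all probes tested. Both were lower in type 2B, 1 for Rpl3 and 1 for Rplp0, where 4.09% of all probes passed in that direction and 3.48% in the other. In the member list the share called was 1.14%. At an unadjusted p of 0.05 in the same fit, 15 members passed, against 18.5% of all probes. Of these, 12 were lower in type 2B (9.09% of all probes) and 3 higher (9.4%). None passed the Bonferroni adjustment, which 1.43% of all probes did (0.612% higher and 0.821% lower in type 2B).

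The fitted differences (log2, type 2B minus type 1) were narrow. Their median was -0.13 over the members and 0.03 over all probes tested, and 159 of the 175 lay within 0.5 of zero. Among all probes, 65.6% did so. For 150 members the whole 95% confidence interval lay within 1 log2 unit of zero, that is within a 2-fold change in either direction, and for 70 it lay within 1.5-fold. The members also varied less inside a type, with a median SD between myofibers of 0.41 against 0.83 for all probes tested. Most members were bright, 146 being well above background in every myofiber, and the 29 others had a median SD of 0.67. The comparisons with all probes were not matched for brightness.

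More members pointed to type 1 than to type 2B, but how far their median lay below zero depended on the scaling. The difference was below zero for 130 of the 175 members, 74.3%, against 47.7% of all probes. Scaling to the 75th percentile of each array in place of quantile normalization moved the median over members to -0.005 and that over all probes to 0.09. Under both scalings the median over members lay below that over all probes. The large subunit had a median of -0.13 over 109 probes and the small subunit -0.15 over 66 probes. No small subunit probe passed the threshold in limma, and 6 did at an unadjusted p of 0.05.

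**Figure D1:**
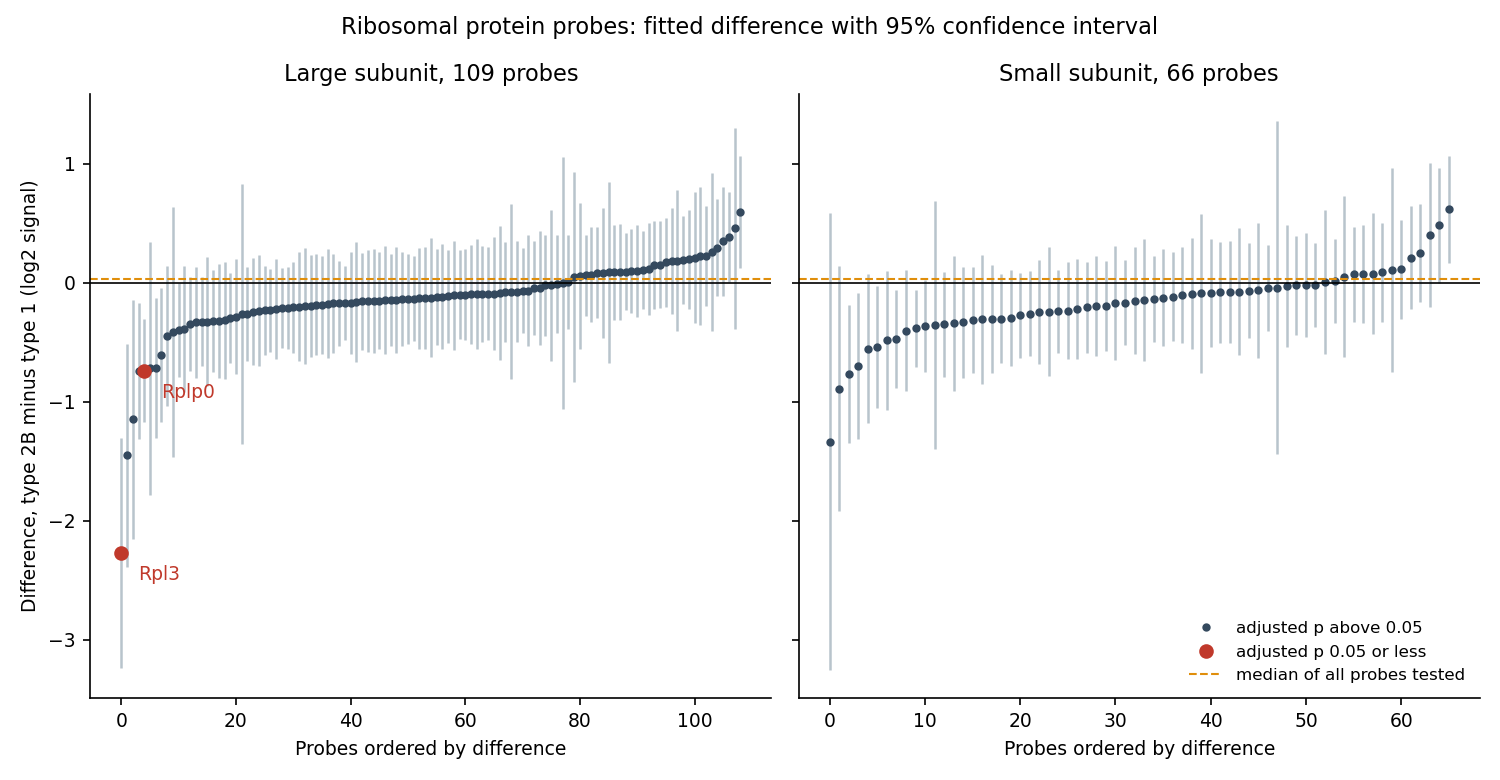
Each point is the fitted difference of 1 ribosomal protein probe (type 2B minus type 1, log2 signal), ordered by size, with its 95% confidence interval as a bar. The 109 large subunit probes and the 66 small subunit probes lie close to zero, and the red points mark Rpl3 at -2.27 and 1 Rplp0 probe at -0.74.

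Rpl3, a large subunit protein near the peptidyl transferase centre, had the largest difference of all members. Its log2 signal in the type 1 myofibers was 8.72 at the lowest, 10.78 at the median and 12.02 at the highest. In the type 2B myofibers the same values were 6.45, 8.29 and 10.49. The ranges overlapped, since the type 2B myofibers E15.3 and E9.5 stood above the type 1 myofibers S11.3, S6.4, S9.4 and S14.2, and E12.5 stood above S11.3.

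The fitted difference for Rpl3 was -2.27 (SE 0.47, 95% interval -3.24 to -1.30), a 4.82-fold lower signal in type 2B, with an adjusted p of 0.0022 in limma. Averaged by mouse, type 1 stood at 10.79 ± 0.50 and type 2B at 8.24 ± 1.04 (SD, n = 6 mice each) without overlap, as for 4.96% of all probes. The exact two-sided permutation test over all groupings of these means gave p = 0.0022, the smallest it can give. It did not keep the pairing of the 3 mice that gave a mean to each type. Without S6.4 the difference was -2.39 (limma adjusted p = 0.0016). On slides 1, 2 and 3 alone it was -2.77, -2.26 and -0.81, and with slide as a fixed factor -2.15 (limma adjusted p = 0.038).

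The probe named for Rpl3-ps1 behaved as the Rpl3 probe did. Lowest, median and highest log2 signals were 8.44, 10.57 and 12.71 for type 1, against 6.60, 8.28 and 9.26 for type 2B. The difference was -2.30 (SE 0.39, limma adjusted p = 3.3e-04), and the type 1 myofiber S6.4 gave its lowest type 1 value.

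Rpl3l, the muscle paralog, pointed the other way without passing the threshold. Its signal was 11.305, 12.53 and 13.13 (lowest, median, highest) in type 1 and 12.27, 13.19 and 13.58 in type 2B myofibers. The difference of 0.59 (SE 0.23, 95% interval 0.12 to 1.07) had an adjusted p of 0.13 in limma. The groups overlapped, and the type 1 myofiber S16.3 was the lowest of all.

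**Figure D2:**
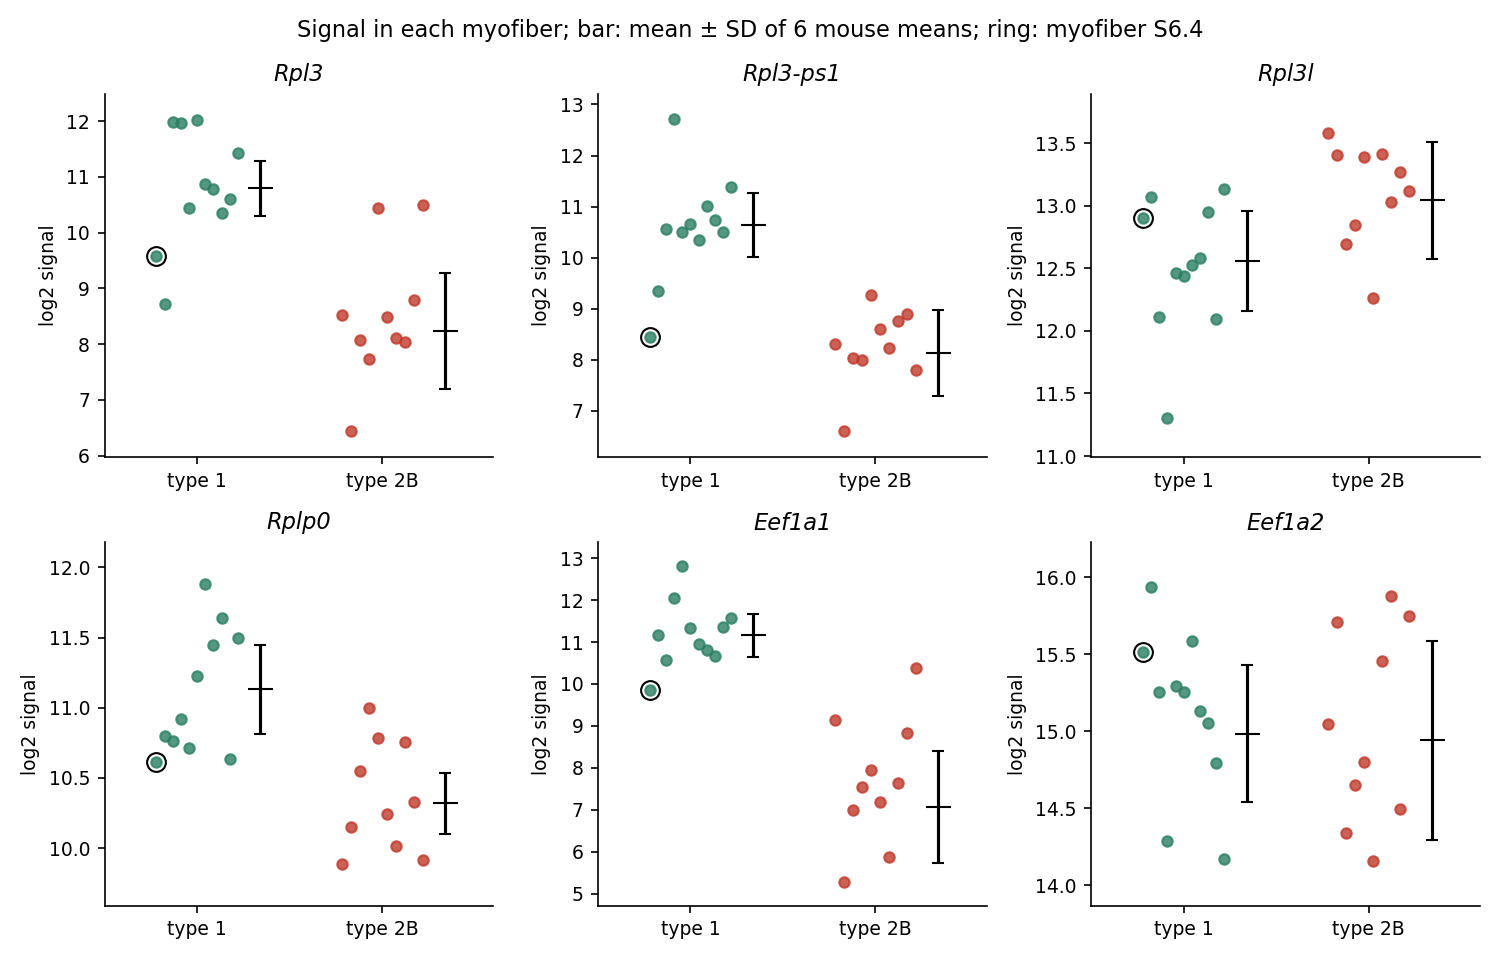
The log2 signal of 6 probes in each of the 21 myofibers (green, type 1; red, type 2B), with the mean ± SD of the 6 mouse means of each type as a black bar and the myofiber S6.4 ringed. The Rpl3, Rpl3-ps1 and Eef1a1 probes sat lower in most type 2B myofibers, whereas Rpl3l and Eef1a2 gave no call.

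The balance within paralog pairs was then compared between types, as the log2 ratio of the second to the first paralog inside each myofiber. The brightest probe of each gene was used, and because a ratio carries the response of both probes, only its change between types is given. Of 8 pairs, 7 could be tested, as the only Rpl39l probe did not pass the signal filter. The p-values below are exact two-sided permutation tests over mouse means, with the adjustment over the 7 pairs beside them. Since these pairs were listed with earlier results of the data known, they are no independent evidence of their direction.

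The Rpl3l to Rpl3 ratio was 3.04 log2 units higher in type 2B (SE 0.55, 95% interval 1.80 to 4.27, n = 6 mice each, exact permutation p = 0.0022, adjusted 0.0076), an 8.20-fold shift. In 7 of the 10 type 2B myofibers the ratio was above every type 1 value. With the Rpl3-ps1 probe in place of the Rpl3 probe the shift was 2.99. Without S6.4 it was 3.097, on slide 1 alone 3.36 and on the other slides 2.70.

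Smaller shifts in the same direction were found for 2 other ribosomal protein pairs. Rps27l, a relative of the small subunit protein Rps27 that is a known p53 target, rose against Rps27 by 0.82 in type 2B (SE 0.26, 95% interval 0.24 to 1.39, exact permutation p = 0.0087, adjusted 0.019). Rpl22l1, a relative of the RNA-binding large subunit protein Rpl22, rose against Rpl22 by 0.65 (SE 0.22, 95% interval 0.17 to 1.13, exact permutation p = 0.011, adjusted 0.019). These were 1.76-fold and 1.57-fold shifts, and single myofibers of the types overlapped in both. Leaving out mouse 3 or mouse 4 took the adjusted p of either pair to 0.056, and leaving out mouse 9 took that of Rpl22l1 over Rpl22 to 0.069. The Rpl22 ratio was read from the brighter of 2 probes, which differed by -0.24 between types. The dimmer Rpl22 probe differed by 0.46, with a high value in E14.3, and a ratio with it was not taken.

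By itself, Rps27l had a signal of 10.705, 11.59 and 11.92 in type 1 and 11.31, 11.96 and 13.13 in type 2B myofibers. The difference of 0.62 (SE 0.22) did not pass (limma adjusted p = 0.094), but it did under 75th percentile scaling (0.70, limma adjusted p = 0.029), with normexp background correction (0.60, limma adjusted p = 0.049) and with slide as a fixed factor (0.77, limma adjusted p = 0.037). The 4 Rps27 probes gave differences from -0.34 to -0.07. All 4 are linked by their accessions to Rps27rt as well, so these 2 genes could not be separated.

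In 3 pairs no shift was detected. Rpl10l, the paralog of Rpl10 known from the testis, changed against Rpl10 by 0.15 (95% interval -0.55 to 0.85). Rpl36al changed against Rpl36a by -0.01 (95% interval -0.20 to 0.17), and Rpl7l1 against Rpl7 by -0.05 (95% interval -0.998 to 0.89). The narrowest of these intervals leaves room for less than a 1.5-fold shift, and the widest for nearly a 2-fold shift. The Rpl36a ratio was read from its brightest probe only, and it was 0.39 on slide 1 and -0.29 on the other slides. The other 2 Rpl36a probes differed from that one in their change between types, with the values given further on.

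**Figure D3:**
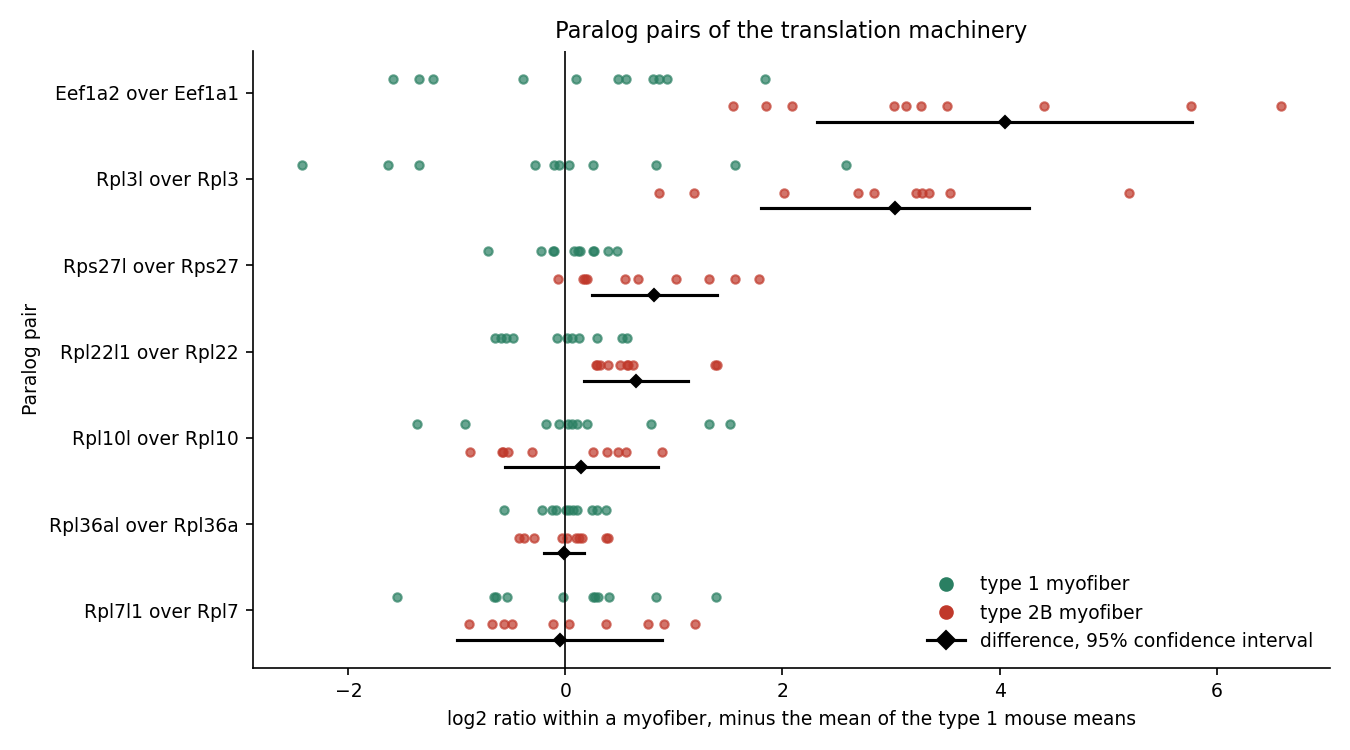
For 7 paralog pairs, the log2 ratio of the second to the first paralog in each myofiber (green, type 1; red, type 2B), minus the mean of the type 1 mouse means, with the difference between types and its 95% confidence interval in black. The Eef1a2 to Eef1a1 and Rpl3l to Rpl3 ratios moved by 4.05 and 3.04, and 3 pairs stayed at zero within their intervals.

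The stalk proteins recruit the elongation factors to the large subunit. Rplp0, the base of the stalk and a common reference gene in PCR assays, had 3 probes, and 1 of them passed. This probe, on mm9 chr5:116013475-116013534, had a signal of 10.61, 10.92 and 11.88 in type 1 and 9.89, 10.29 and 11.00 in type 2B myofibers. The ranges overlapped narrowly, while the mouse means, 11.13 ± 0.32 and 10.32 ± 0.22 (SD, n = 6 mice each), did not. Mouse means did not overlap for 3 of the 175 members, against 4.96% of all probes.

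The difference of that Rplp0 probe was -0.74 (SE 0.21, 95% interval -1.17 to -0.30, limma adjusted p = 0.030), a 1.67-fold lower signal in type 2B. The exact permutation p over its mouse means was 0.0022, unadjusted and the smallest that test can give. The difference was -0.79 without S6.4 (limma adjusted p = 0.024). It did not pass under 75th percentile scaling (-0.65, limma adjusted p = 0.065) or with slide as a fixed factor (-0.66, limma adjusted p = 0.11). With mouse as a fixed block, a fit that rests on the 3 mice that gave both types, it was -0.59 (limma adjusted p = 0.56), and with unflagged spots missing -0.87 (limma adjusted p = 0.058). With the replicate block it was -0.70 (limma adjusted p = 0.12). It was -0.26 on slide 1, -1.32 on slide 2 and -0.81 on slide 3. The other 2 Rplp0 probes gave -0.33 (95% interval -0.70 to 0.04) and -0.30 (95% interval -0.67 to 0.08).

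Those 2 probes overlap on the genome yet differ in sequence, and they are shown because a reader comparing Rplp0 assays would want to know which bases each holds. They share 53 positions and differ at 5 of them, given in capitals. The first lies on mm9 chr5:116013404-116013463 and the second on chr5:116013397-116013456.
Rplp0 probe, first: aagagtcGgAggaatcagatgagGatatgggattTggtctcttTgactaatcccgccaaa
Rplp0 probe, second: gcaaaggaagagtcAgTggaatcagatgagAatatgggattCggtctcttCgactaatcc

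The other stalk proteins did not pass. Rplp1 differed by -0.05 (95% interval -0.52 to 0.43) and Rplp2 by 0.10 (95% interval -0.29 to 0.49). The Rplp2 probe is linked by its accessions to Wdr89 as well.

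No other large subunit probe passed the threshold. Rpl5 and Rpl11, which bind Mdm2 when ribosome assembly fails, differed by 0.22 for the single Rpl5 probe and by -0.39 to -0.13 over 3 Rpl11 probes. Rpl13a, often used as a reference gene, differed by 0.15 and -0.08 at its 2 probes. Rpl41, the smallest ribosomal protein, differed by -0.34 (SE 0.19, limma adjusted p = 0.36). Rpl23, whose probe was among the 3 least variable members inside a type, differed by -0.17 with an SD between myofibers of 0.21, and its other 2 probes by -0.23 and -0.45.

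In the small subunit, Rps6, the substrate of the S6 kinases, differed by -0.14 and -0.17 at 2 bright probes and by -0.89 (95% interval -1.92 to 0.14) at a dim one. Rps18, another common reference gene, differed by 0.40 and -0.10 at its 2 probes. Rpsa, which doubles as a laminin receptor, ranged from -0.30 to -0.04 over 4 probes. Rps16, with one of the 3 brightest probes, differed by -0.24. Rps7, also among the 3 least variable, differed by -0.39 (SE 0.16, limma adjusted p = 0.16).

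Where a gene had several probes, they mostly gave 1 answer. Of 55 genes with more than 1 tested probe, 44 had differences within 0.5 of each other. In 3 genes, Rpl17, Rpl31 and Rps3, the spread was over 1, and in each a single probe stood apart from its neighbours. For Rpl17 it was a dim probe at -1.45 (SE 0.45, limma adjusted p = 0.052), clear of background in 9 myofibers of type 1 and 5 of type 2B, while the other 6 probes lay between -0.19 and 0.09. Without S6.4 that dim probe passed, at -1.59 (limma adjusted p = 0.031).

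For Rpl31 the probe standing apart was also dim, at -1.15 (limma adjusted p = 0.19), against -0.15 to -0.07 for the others. For Rps3 it was a bright probe at -1.34 (SE 0.93, limma adjusted p = 0.50), and the other 2 gave -0.33 and -0.14. In Rpl36a, 2 of 3 probes were lower in type 2B by -0.74 and -0.72 (limma adjusted p = 0.12 and 0.15) and the remaining probe gave 0.09, a gene that stood among the pairs above. The Rpl39l probe was among the members not tested.

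The probes that the authors assigned to long non-coding transcripts gave the same picture as the rest. Many ribosomal protein genes have processed pseudogenes, and 74 of the 177 member probes, that of Rpl3 among them, also have a value in the deposited table of non-coding probes. These 74 had a median difference of -0.11 and 1 call, and the other 101 tested had -0.14 and 1 call. In that table the Rpl3 probe differed by -2.26 (limma adjusted p = 0.0019). This adjustment was over the 3668 probes of the table, not the 46922 of the main fit. The columns were used as labelled, also those of E13.3 and E12.5, which followed each other's scanner output.

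The level of the family as a whole varied from myofiber to myofiber in both types. For each myofiber, the median deviation of the 175 probes from their own means was taken as its level on the log2 scale. Lowest, median and highest levels were -0.39, 0.10 and 0.54 for type 1, against -0.40, -0.12 and 0.29 for type 2B. The mouse means were 0.13 ± 0.27 and -0.15 ± 0.17 (SD, n = 6 mice each), so the types overlapped widely.

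On slide 1, with 4 myofibers of each type, the mean level was 0.01 in type 1 and -0.04 in type 2B. On slide 2 it was 0.26 and -0.32, and on slide 3 it was 0.16 and 0.10, from 2 myofibers of each type. With 75th percentile scaling the medians became 0.04 in type 1 and 0.03 in type 2B. No test was made on this score, because it sums over chosen members.

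Many members moved together inside a type. Over the 146 probes well above background in every myofiber, the median SD around the type mean fell from 0.39 to 0.30 once the shared level of each myofiber was subtracted. The median correlation between 2 of these probes over the 21 myofibers was 0.36 for different genes and 0.70 for probes of the same gene. These values are a description, since the probes share arrays, amplification and normalization, and the myofibers of 1 mouse are not independent. The shared level was itself a median of member probes, which tends to lower the SD and raise the correlation with it. Other sets of probes were not compared. Rpl34 followed the shared level most closely (r = 0.94), and 1 Rpl15 probe least (r = -0.25). That Rpl15 probe was among the 3 most variable members, with an SD of 1.28.

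**Figure D4:**
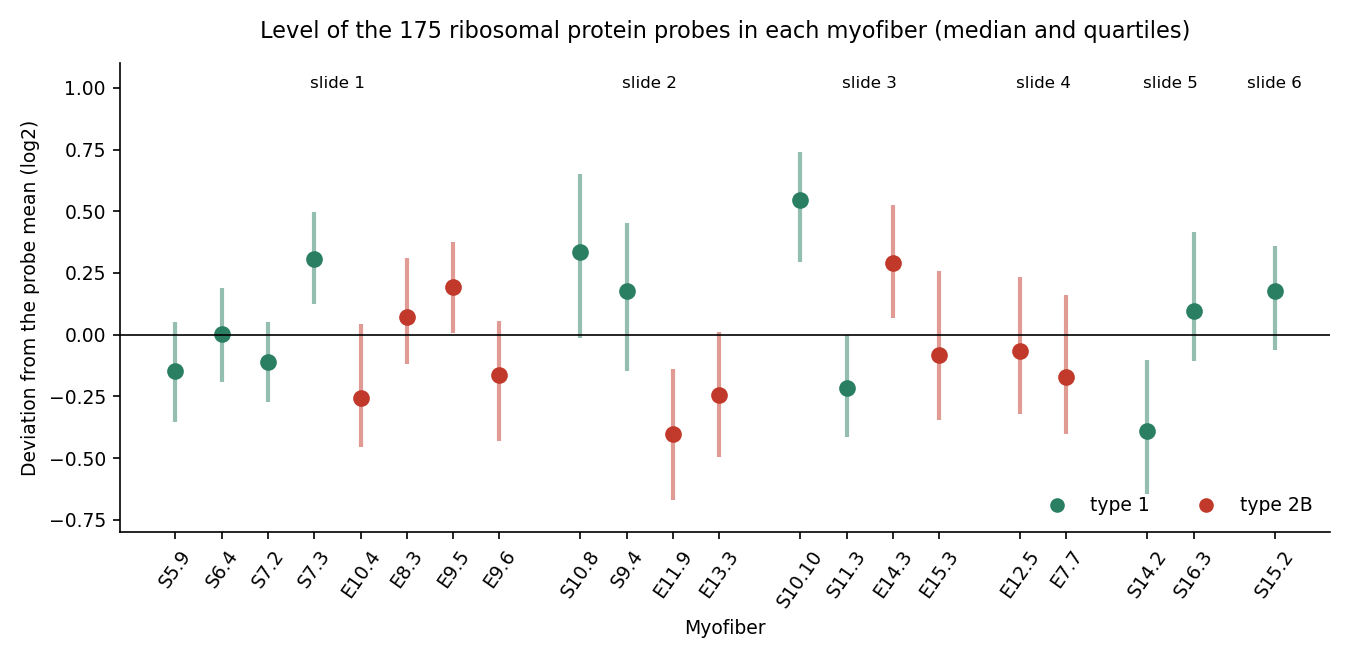
The level of the 175 ribosomal protein probes in each myofiber, as the median deviation from the probe's own mean (point, log2 units) with the quartiles over probes (bar), by slide. Type 1 (green) ran from -0.39 to 0.54 and type 2B (red) from -0.40 to 0.29, and the types overlapped on slides 1 and 3.

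Other genes of the translation machinery were read from the same fit. The translation factors whose mRNAs carry the same 5′ terminal oligopyrimidine tract as ribosomal proteins were represented by 20 genes and 32 probes. Of these, 3 probes were lower in type 2B and none was higher, 9.38% against 7.57% of all probes, with a list median of -0.10. They belonged to Eef1a1 and to Hnrnpa1, an RNA-binding protein, which differed by -1.08 (SE 0.25, limma adjusted p = 0.0058) at 1 probe and by -0.77 (SE 0.59, limma adjusted p = 0.55) at the other.

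Eef1a1 delivers aminoacyl-tRNA to the ribosome. Its brighter probe is linked by its accessions to the microRNA gene Mir703 as well. The brighter of its 2 probes had a signal of 9.85, 11.18 and 12.81 in type 1 and 5.29, 7.59 and 10.38 in type 2B myofibers. Most type 2B myofibers lay below all type 1 myofibers, but E15.3 stood above S6.4. The difference was -3.50 (SE 0.50, limma adjusted p = 3.1e-05), an 11.29-fold lower signal in type 2B, while the second probe gave -3.87 (SE 0.70, limma adjusted p = 6.5e-04).

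Eef1a2, the muscle and nerve paralog, did not differ detectably. Its signal was 14.17, 15.26 and 15.94 in type 1 and 14.16, 14.92 and 15.88 in type 2B myofibers, a difference of -0.09 (95% interval -0.64 to 0.46). The Eef1a2 to Eef1a1 ratio was therefore 4.05 log2 units higher in type 2B (SE 0.77, 95% interval 2.32 to 5.77, n = 6 mice each, exact permutation p = 0.0022, adjusted 0.0076), and 4.15 units higher without S6.4.

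Markers of attached cells were set beside Rpl3 and Eef1a1, which are expressed in most cell types. Of 5 connective tissue genes, 1 of the 4 tested passed, Col3a1, at -2.45 (limma adjusted p = 0.0014), and Pdgfra was at background in all myofibers. The summed linear signal of the list was between 281 and 4754 in type 1 and between 212 and 689 in type 2B myofibers. Of 4 satellite cell genes, 1 of the 3 tested passed, Ncam1, at -2.50 (limma adjusted p = 0.0050), with sums from 1447 to 8349 and from 622 to 4590, and Myf5 was at background in all. None of the 5 endothelial or 5 blood cell genes passed in limma, 8 of these 10 having been tested. Their part in the Rpl3 and Eef1a1 results was not tested.

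Ribosome assembly factors, which process ribosomal RNA in the nucleolus, gave no call in limma over 51 probes of 34 genes, with a median of -0.0016. Among the named ribosomal protein pseudogenes, 1 of 52 tested probes passed, 1.92% against 7.57% of all probes, namely the Rpl3-ps1 probe described above, and the list median was -0.07. The paralogs outside the name rule gave differences of 0.47 for Rpl22l1, -0.16 for Rpl7l1 and 0.38 for Rps4y2, and none passed.

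The mTOR route, which adjusts the translation of ribosomal protein mRNAs to nutrients, was listed together with all kinases named Rps6ka or Rps6kb. This list had 5 calls among 31 probes of 21 genes, 16.1% against 7.57% of all probes. The share is not that of the mTOR route alone, since Rps6ka kinases are among the calls. Rps6ka3 was higher in type 2B at 1 of 3 probes, by 1.88 (SE 0.51, limma adjusted p = 0.022). Akt1 (-1.45, limma adjusted p = 0.0022), Rps6ka4 (-2.16, limma adjusted p = 0.019) and Rps6ka5 (-2.68, limma adjusted p = 0.023) were lower in type 2B, as was Mtor at a dim probe (-1.42, limma adjusted p = 0.045) that was well above background in only 5 myofibers. The other Mtor probe gave -0.16. Rps6kb1, the main S6 kinase, gave 0.75, 0.39 and -0.34 at its 3 tested probes, and Myc -0.08, and none of these passed.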

How the data were processed

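Single myofibers were hybridised to 1-colour Agilent 60-mer arrays. Per the labels, the deposited intensity values are the processed signals of Agilent Feature Extraction 10.7.3.1, already background-subtracted by that program, and the spot flags come from the same output. The authors also deposited a table of quantile normalized signal for 3668 probes assigned to long non-coding RNAs, which served as an alternative only. In it the columns of E13.3 and E12.5 each followed the scanner output of the other, and both are type 2B. Before the arrays, the authors amplified the RNA by whole transcriptome amplification, so that measured differences also carry amplification noise.

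Here, 3671 control spots and spots with outlier flags were left out, signals were put on the log2 scale and quantile normalized over the 21 arrays, and spots of 1 probe were averaged. A probe entered the test if 50% or more of either type's arrays flagged it positive and significant. The test was limma 3.58.1 in R 4.3.3, with the mouse as a random block (consensus correlation -0.017) and Benjamini-Hochberg adjustment at 0.05 over all of them. Differences are type 2B minus type 1. Mouse means per type and paralog ratios were tested by exact permutation over 924 groupings. In these tests the 3 mice that gave both types counted once in each type, as if independent. Fits were tested on simulated data. Scaling, background, filters, blocks, slides, thresholds, a Welch test in place of limma (the methods name a t-test with gene permutation and Bonferroni adjustment) and each myofiber and mouse were varied. Other analyses used Python 3.11.15, numpy 2.4.6 and scipy 1.17.1. The members and lists were chosen with earlier results of these data known. Named genes follow a rule: paralog pairs, the stalk, Rpsa, Rps6, Rpl5, Rpl11, Rpl13a and Rps18, probes past the threshold, the 3 brightest, dimmest, most and least variable, genes whose probes differed by over 1, members not tested and, of the other lists, calls and Eef1a1, Eef1a2, Rps6kb1 and Myc. The genes named by their correlation with the shared level were chosen after their values were seen. Some members that the rule names are not reported here.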

Additional observations from a re-analysis of the deposited data

Results flagged for a closer look

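Within the 10 type 2B myofibers, 85 probes were examined for a single myofiber far from the others (Dixon's test at 95%), and 10 were found. Some of the 85 were named for a large spread or for standing apart from their gene's other probes. The count can therefore not be set against a chance rate. The 10 values fell in 8 myofibers. The clearest was a Rps3 probe, at a log2 signal of 1.81 in E9.6 against 11.6 to 12.7 in the others, where another Rps3 probe read 12.1 in that myofiber. Without E9.6 the difference of that probe was -0.31 in place of -1.34. A Rpl22 probe read 12.7 in E14.3 against 8.37 to 9.79, and its difference fell from 0.46 to 0.08 without it. The Rps6ka5 probe named above read 8.50 in the same myofiber, E14.3, against 2.01 to 4.00.

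The other 7 values follow. Dim probes were low at 1.95 for Rpl31 in E15.3, 1.67 for Rpl17 in E7.7, 3.55 for Rps6 in E15.3 and 2.45 for Rpl39 in E13.3. The Rpl5 probe was low at 11.5 in E11.9. A bright Rpl31 probe was high at 13.8 in E10.4, and a bright Rpl17 probe at 13.7 in E12.5.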

How the results depend on the processing

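The Rpl3 difference kept its sign in all 49 alternative values and passed in each of the 30 fits that left out a myofiber or mouse (-2.55 to -2.04, limma adjusted p from 6.6e-04 to 0.016). It did not pass on slide 1, 2 or 3 alone, nor with Bonferroni adjustment of limma or of the Welch test. The number of members past the threshold was 5 with normexp background correction, 1 with unflagged spots missing, mouse as a fixed block, other slides only, 1 probe per gene or only probes outside the deposited table, and 0 on slide 1, 2 or 3 alone, with Bonferroni adjustment and with the Welch test and Bonferroni adjustment. Of all probes, 3.01% passed on slide 1, 0.0278% on slide 2 and none on slide 3, so that the counts of 0 on slides 2 and 3 say nothing about the members. Among the members called, the number higher in type 1 was 4 with normexp, 1 in each setting with 1 call and 0 where none passed. With slide as a fixed factor it was 1, where 6.48% of all probes passed in either direction. The number higher in type 2B was 1, Rps27l, under 75th percentile scaling, normexp and slide as a fixed factor. Slides 2 and 3 were added after seeing the data. The median difference was -0.58 on slide 2.

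With each myofiber or mouse left out, the number past the threshold ran from 1 to 4, higher in type 1 from 1 to 4 and in type 2B from 0 to 1, and the median from -0.20 to -0.09. Of all probes, 5.08% to 7.60% passed in these fits. Rplp0 was lost without S15.2, S10.8, S9.4, S10.10, E13.3, E10.4, E7.7, E15.3 or mouse 2, 3, 4, 7, 8 or 10, with adjusted p up to 0.11, and without S14.2 the count was 4. Without single mice the Rps27l to Rps27 shift ran from 0.68 to 0.94 and that of Rpl22l1 to Rpl22 from 0.49 to 0.75. The Rpl36al to Rpl36a shift was 0.39 on slide 1 and -0.29 on the other slides. The cause of these changes was not tested.

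The replicate numbers of the labels did not pair the samples: the correlation of same-numbered deviations ran from -0.15 to 0.20 over 10 pairs and was over 0.1 in 1. With the replicate number as a block, 1 member passed, Rpl3, with 1 higher in type 1, and 6.10% of all probes passed.

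Over 68 named probes, 161 of 3281 values changed sign, and none of the 3281 was a reversal of a called difference. The arrays' signal over background limits the dim probes most: 29 of the 175 members were not well above background in every myofiber.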
